A study of Mus musculus with 6 samples.

Results

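The genes of the chemokine system were followed in bulk RNA sequencing of mouse liver, as 44 ligand genes, 18 signalling receptor genes and 4 atypical receptor genes, 66 of the 54232 genes counted. They were picked by name: protein-coding genes whose GENCODE symbol is Cx3cl1, Cx3cr1, Xcl1 or Xcr1, or Ccl, Cxcl, Ccr, Cxcr or Ackr followed by a number and at most 1 letter, kept whatever their level. The set was chosen with earlier results of these data known. The DKO group (3 libraries) carried a whole-body null allele of FXR (Fxr-/-), which senses bile acids in the nucleus and is encoded by Nr1h4, and lacked Xbp1 in the liver (Xbp1LKO). The SKO group (3 libraries) was Fxr-/- with floxed Xbp1 alleles (Xbp1fl/fl), so both groups lack FXR and differ by design in hepatic Xbp1. All animals were chow-fed C57BL/6 males aged 8 to 10 weeks. The transgene that drives the liver deletion is not given in the labels, nor is it said whether a library holds 1 animal, and the titles of 3 DKO libraries and 1 SKO library carry a pair of numbers whose meaning is not given.

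Chemokines are small secreted proteins that attract leukocytes along a gradient. They are sorted by the spacing of their first cysteines into CC, CXC, XC and CX3C families, and a few, such as CX3CL1 and CXCL16, are made as membrane proteins that can be shed. Signalling receptors couple to inhibitory G proteins and move the cell, whereas atypical receptors bind chemokines without G protein signalling and clear or display them. In the liver, stromal and endothelial cells, Kupffer cells, cholangiocytes and stressed hepatocytes are known chemokine sources, and the CCL2 and CCR2 pair is known for bringing monocytes into injured liver. XBP1 switches on genes for protein folding and secretion when the endoplasmic reticulum is under load.

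Total counts were 18382107 to 21107674 per DKO library and 16966422 to 20211285 per SKO library, so that 3 counts, the most that an observed 0 leaves possible through counting error, equal 0.126 to 0.191 CPM (counts scaled to a library total and normalised). Xbp1 averaged 76.9 ± 16.2 CPM in DKO and 247 ± 18.9 CPM in SKO (SD, n = 3 each), a log2 difference of -1.68 ± 0.14 (SE), with an edgeR adjusted p of 0.000146. Nr1h4 counts over the whole gene were 97.2 ± 3.36 CPM in DKO and 98.5 ± 5.93 CPM in SKO, and do not check the shared Fxr-/- genotype. Albumin mRNA, the defining hepatocyte marker, was at 31355 to 41459 CPM in DKO and 53058 to 75508 CPM in SKO. In bulk tissue, a change in the number of cells of a type and a change in RNA per cell cannot be told apart, and since no label states that each library is a different mouse, p-values cover the spread among these samples, which may be technical.

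Chemokine mRNA in these livers was dominated by a few ligands. Levels per length are given as TPM (transcript abundance scaled to a fixed library total), computed from merged exons and used here only for rank and share within a library. By TPM, Cxcl12 made up 48.7 ± 2.67% of the summed ligand level in DKO and 56.1 ± 5.86% in SKO (SD, n = 3 each). CXCL12 is the homeostatic ligand of CXCR4 and ACKR3. Next in level were the myeloid CC ligand Ccl9, with 12.8 ± 1.59% in DKO and 15.1 ± 1.14% in SKO, and its neighbour Ccl6, with 10.1 ± 1.35% in DKO and 4.999 ± 0.825% in SKO. The interferon-inducible Cxcl9 followed at 7.13 ± 0.625% in DKO and 6.97 ± 2.61% in SKO. Of the summed TPM of signalling receptors, Cxcr4 made up 18.1 ± 2.80% in DKO and 13.4 ± 3.38% in SKO. Summed over all 18 signalling receptors, the level was 39.5, 25.6 and 27.9 CPM in the DKO libraries and 18.2, 15.1 and 17.6 CPM in the SKO libraries, with no overlap. The summed ligands did overlap, at 659, 614 and 655 CPM in DKO and 603, 745 and 764 CPM in SKO, and overlapped also without Cxcl12, at 163, 131 and 162 CPM in DKO and 145, 128 and 138 CPM in SKO.

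Of the 66 genes, 14 had no counts in any library, 23 had counts too low for the filter (in effect a level of 0.526 CPM in at least 3 libraries) and 29 were tested. At an edgeR adjusted p under 0.05, taken over all 13986 genes tested, 6 of the 16 ligands tested (37.5%) and 5 of the 9 signalling receptors tested (55.6%) were higher in DKO, against a background of 10.3% of all genes. No ligand and no signalling receptor was lower, and 1 of 4 atypical receptors, Ackr1, was, against 9.70% of all genes lower and 20.0% called in either direction. None of the ligands or signalling receptors was lower at an unadjusted p under 0.05, or by DESeq2 or limma-voom. The higher ligands were Ccl6, Ccl3, Cx3cl1, Cxcl14, Cxcl16 and Ccl2, and the higher receptors included Cx3cr1, Cxcr4, Cxcr3 and Ccr2. Ccl3 and Cxcr3 passed the filter only through the DKO libraries and so had to differ. Cx3cr1, Cxcl14, Ccl2 and the uncalled Ccr7 and Ackr3 reached the filter level in 3 DKO but only 2 SKO libraries. The DKO libraries alone would pass these genes and the SKO libraries alone would not, so they are not free of this selection. With a filter on the mean over the 6 libraries (at least 1 CPM) Ccl3 and Cxcr3 drop out, as do the uncalled receptors Xcr1, Ccr7, Cxcr6 and Ccr9. Then 5 of 15 ligands were higher. Of receptors, atypical ones included, 4 of 8 were higher, against 5 of 13 with the main filter. Median log2 fold changes were 0.24 over the tested ligands and 0.66 over the tested signalling receptors, and 0.006 over all genes tested. The ligand median was 0.10 with the mean filter, and was 0.12 without DKO replicate 1, 0.40 without SKO replicate 1 and 0.0034 without SKO replicate 2. Of the 29 tested members, 15 had all DKO libraries above all SKO libraries and 2 had them below, against 20.2% and 19.4% of all genes.

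**Figure D1:**
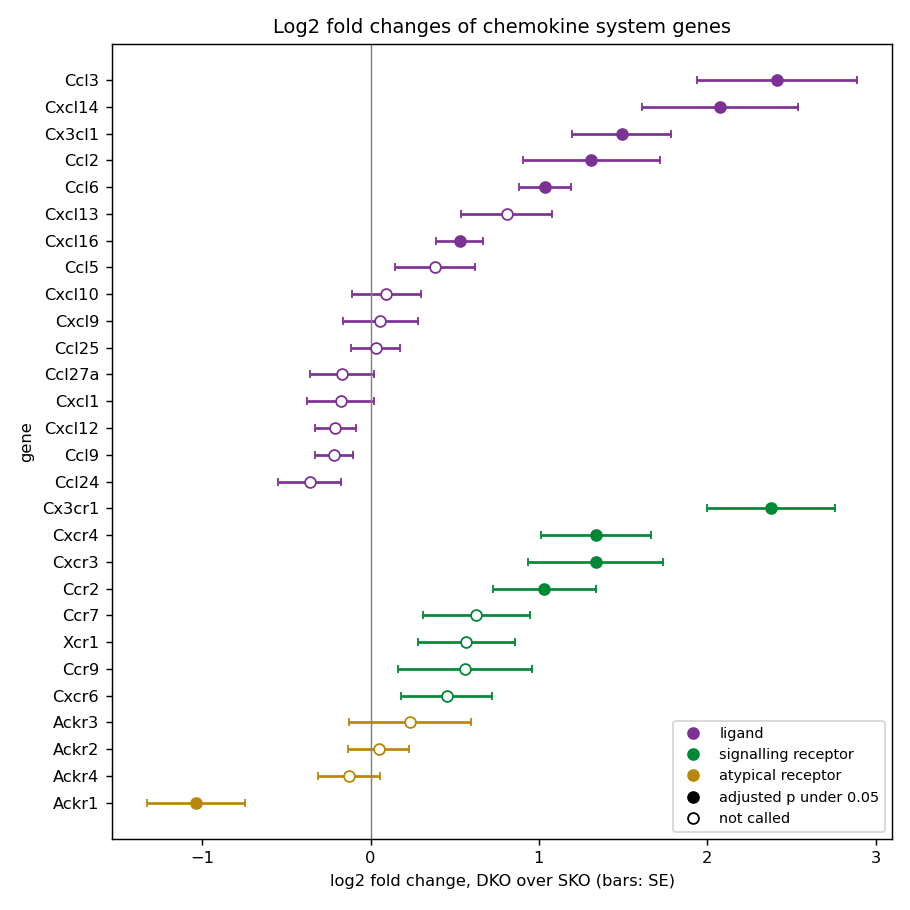
Log2 fold change of DKO over SKO for 28 of the 29 chemokine system genes tested, with points as edgeR estimates, bars as SE, filled points for genes with an adjusted p under 0.05, and rows grouped into ligands, signalling receptors and atypical receptors. The 8 signalling receptors drawn all lie right of 0, the 16 ligands spread from -0.36 to 2.41, and Ackr1 is the filled point left of 0.

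Leaving out a library changed these counts more for receptors than for ligands. Of the 16 ligands tested, 4 were higher without DKO replicate 1, DKO replicate 3, SKO replicate 2 or SKO replicate 3, 5 without DKO replicate 2 and 6 without SKO replicate 1. The filter lets more ligands through in these smaller fits, and without DKO replicate 3 Ccl4 was newly tested and also higher (edgeR adjusted p = 0.0365). Higher receptors numbered 2 without DKO replicate 1, DKO replicate 3 or SKO replicate 3, 3 without SKO replicate 1, 1 without SKO replicate 2, and 5 without DKO replicate 2. With all libraries 2803 of 13986 genes tested were called, and fewer were called in each of these fits (range in the closing section). Whether receptors lost more calls than genes at large was not tested. The counts for gene lists given below come from the same fits. In each of the 6 fits without 1 library Ccl6, Cx3cl1, Cxcl14 and Cx3cr1 were called. So was Ccl3, which with all libraries passed the filter only through DKO. DKO replicate 1 had the highest level of the 6 libraries for 9 of the 11 higher members, and DKO replicate 3 for the other 2.

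Among ligands, the myeloid chemokine Ccl6 had the smallest p-value. Ccl6 (ENSMUSG00000018927, chromosome 11, 83587882 to 83593087 in mm10, minus strand) stood at 26.5, 17.7 and 23.2 CPM in DKO, against 12.01, 9.59 and 11.4 CPM in SKO. Each DKO library was above all SKO libraries. Its log2 difference was 1.04 ± 0.15 (SE), with an edgeR adjusted p of 0.00226, and it kept its call in all 12 alternatives. CCL6 is a mouse CC chemokine made by macrophages and other myeloid cells and, like CCL9, binds CCR1. Ccl9 (chromosome 11, next to Ccl6) was not called, with 49.1, 40.2 and 56.0 CPM in DKO and 55.0, 59.4 and 54.5 CPM in SKO (log2 -0.22 ± 0.11, edgeR adjusted p = 0.198). These neighbours in the same cluster thus gave different calls, although the difference between them was not tested.

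Ccl3 (chromosome 11, 83647844 to 83649355), a ligand of CCR1, was close to the detection limit in SKO. It had 0.672, 0.537 and 0.726 CPM in DKO, from 16, 11 and 14 counts, against 0.0635, 0.164 and 0.113 CPM in SKO, from 1, 3 and 2 counts. The groups did not overlap, and the SKO libraries each lay at or below 3 counts. The log2 fold change was 2.41 ± 0.48 (edgeR adjusted p = 0.00741), and the ratio of normalised counts was 5.56 with a 95% counting interval of 2.35 to 16. Ccl4, its neighbour, failed the filter at 31 counts in DKO and 6 in SKO, a ratio of 4.20 (95% counting interval 1.73 to 12.3), and was called without a filter (edgeR adjusted p = 0.0241) and in the fit without DKO replicate 3. Ccl2 (chromosome 11, 82035571 to 82037453), the main ligand of CCR2, had 1.47, 1.32 and 1.45 CPM in DKO, against 0.953, 0.219 and 0.563 CPM in SKO. Its log2 fold change was 1.31 ± 0.40 (edgeR adjusted p = 0.0454). The call for Ccl2 ended with DESeq2 (adjusted p = 0.0518) and in every fit without 1 library other than the one lacking SKO replicate 1 (largest edgeR adjusted p 0.137), and without SKO replicate 2 its log2 fold change was 0.90. Ccl7, a related CCR2 ligand, had only 18 counts in DKO and 10 in SKO and was not tested. Ccl5, a chemokine made by T cells, was tested and not called, at 1.66 to 2.31 CPM in DKO and 1.43 to 1.72 CPM in SKO (log2 0.38 ± 0.24, edgeR adjusted p = 0.291).

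Both chemokines made as membrane proteins rose in DKO. Cx3cl1 (chromosome 8, 94772009 to 94782427), fractalkine, stood at 4.20, 2.44 and 2.44 CPM in DKO, against 0.889, 1.15 and 1.18 CPM in SKO. Each DKO library was more than 2 CPM and each SKO library under 1.2 CPM. Its log2 fold change was 1.49 ± 0.29 (edgeR adjusted p = 0.00746), with a call in all 12 alternatives. Cxcl16 (chromosome 11, 70453983 to 70459984), the ligand of CXCR6, had 19.01, 13.03 and 16.7 CPM in DKO, against 11.9, 10.5 and 11.5 CPM in SKO. The groups did not overlap, but the log2 fold change was small, 0.53 ± 0.14 (edgeR adjusted p = 0.0252). The call for Cxcl16 ended without DKO replicate 1, DKO replicate 3, SKO replicate 2 or SKO replicate 3 (edgeR adjusted p up to 0.0963). Exons of Cxcl16 overlap those of Zmynd15 on the other strand, and the strand setting of the counting is not given, so some reads may be assigned to neither or to the other gene.

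Cxcl14 (chromosome 13, 56288643 to 56296551), a CXC chemokine of epithelial and stromal tissue, had 3.82, 1.81 and 1.40 CPM in DKO, against 0.318, 0.713 and 0.619 CPM in SKO. The groups did not overlap, and DKO replicate 1 was more than 2 times as high as either other DKO library. The log2 fold change was 2.08 ± 0.46 (edgeR adjusted p = 0.0141), and 1.51 without DKO replicate 1, with a call in all 12 alternatives. The B-cell attractant Cxcl13 lay at 2.60, 2.20 and 1.81 CPM in DKO and 1.52, 0.932 and 1.35 CPM in SKO. The groups did not overlap, but it was not called (log2 0.81 ± 0.27, edgeR adjusted p = 0.0597), and was called only with upper-quartile factors or total counts (edgeR adjusted p = 0.0485 and 0.0243).

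**Figure D2:**
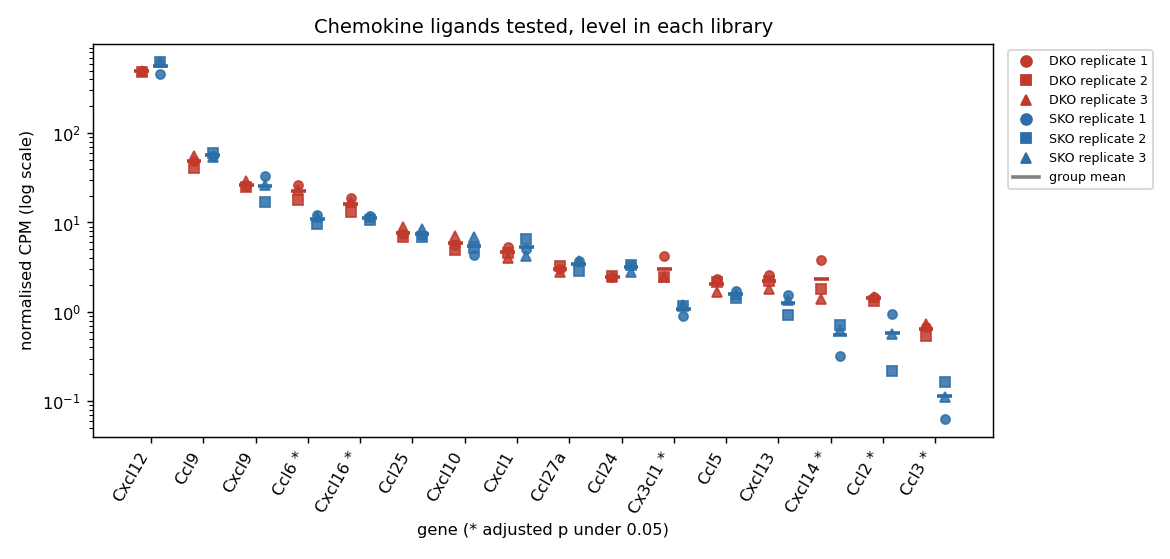
Normalised CPM (log axis) of the 16 ligands tested, in order of mean level, with 1 point per library, DKO left of SKO for each gene, short lines for group means, and an asterisk for an adjusted p under 0.05. Cxcl12 stands above all other ligands in every library, and the 6 genes with an asterisk show DKO points above all SKO points.

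The most abundant and the interferon-inducible ligands were not called. Cxcl12 (chromosome 6, 117168535 to 117181367) had 496, 483 and 493 CPM in DKO, against 459, 617 and 626 CPM in SKO. The SKO libraries were spread on both sides of the DKO libraries (log2 -0.21 ± 0.12, edgeR adjusted p = 0.261), and without SKO replicate 1 the gene was called lower (log2 -0.34, edgeR adjusted p = 0.0383). Cxcl9 had 25.4, 25.0 and 29.2 CPM in DKO and 33.2, 17.05 and 26.4 CPM in SKO (log2 0.06 ± 0.22, edgeR adjusted p = 0.884). Cxcl10 had 5.62, 4.88 and 7.05 CPM in DKO and 4.32, 5.21 and 6.87 CPM in SKO (log2 0.09 ± 0.21, edgeR adjusted p = 0.788). CXCL9 and CXCL10 are the CXCR3 ligands induced by interferon-gamma, and the DKO and SKO libraries overlapped for both genes. Cxcl11, the remaining CXCR3 ligand gene, is annotated as a polymorphic pseudogene and fell outside the selection, with 56, 32 and 25 counts in DKO and 41, 44 and 38 counts in SKO. Cxcl1, a CXCR2 ligand that draws neutrophils, had 5.37, 4.54 and 4.04 CPM in DKO and 5.08, 6.52 and 4.22 CPM in SKO (log2 -0.18 ± 0.20, edgeR adjusted p = 0.568). Ccl25, the CCR9 ligand, had 7.34, 6.88 and 8.81 CPM in DKO and 7.24, 6.85 and 8.44 CPM in SKO (log2 0.03 ± 0.15, edgeR adjusted p = 0.907). Exons of Ccl25, Cxcl10 and Ccl27a overlap those of Elavl1, Art3 and Il11ra1, in that order, on the other strand. Of the 2 ligands left, Ccl27a (log2 -0.17 ± 0.19, edgeR adjusted p = 0.575) ranged over 2.80 to 3.27 CPM in DKO and 2.85 to 3.75 CPM in SKO. Ccl24, an eosinophil attractant and CCR3 ligand, lay at 2.43 to 2.54 CPM in DKO and 2.81 to 3.37 CPM in SKO without overlap, and its log2 difference of -0.36 ± 0.19 did not pass (edgeR adjusted p = 0.203).

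The other ligands were at or near the detection limit. The 15 with counts that were not tested had 1 to 67 counts over the 6 libraries, among them the neutrophil attractants Cxcl2 (15 counts in DKO, 7 in SKO) and Cxcl5 (6 and 3), Xcl1 (22 and 11), Ccl22 (39 and 28) and Ccl19 (26 and 30). The 13 with no counts were 7 copies on unplaced scaffolds (of Ccl19, Ccl21a, Ccl21b, Ccl21c and Ccl27) and the chromosomal genes Ccl1, Ccl21b, Ccl26, Ccl27b, Cxcl3 and Cxcl15. Genes of the Ccl19, Ccl21 and Ccl27 group have near-identical copies, so reads that map to several places may have been lost and a count of 0 is uncertain there. Of these 15 only Ccl4 was called when no filter was applied.

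Promoter windows of RefSeq (GRCm38.p6, 250 bases before to 50 after the start of the gene) were matched for 45 of the 61 member symbols and for 8 of the 11 members higher in DKO. The windows below are those of the 4 higher ligands with the smallest p-values that had one, and of Cxcl1 and Cxcl10, which were added after their motifs were seen, because both are known targets of NF-kappa-B and neither was called. They lie at chr11:83593038-83593337 (Ccl6, minus strand), chr11:83649329-83649628 (Ccl3, minus), chr8:94771930-94772229 (Cx3cl1, plus), chr13:56296502-56296801 (Cxcl14, minus), chr5:90890995-90891294 (Cxcl1, plus) and chr5:92348840-92349139 (Cxcl10, minus). Each is printed 5′ to 3′ on the strand of the gene, and capitals mark matches to any of 5 motifs, GGG, any 3 bases and TTCC (kappa-B), GAAA, any 2 bases and GAAA (interferon-stimulated response element, ISRE), TGANTCA (AP-1) and TGACGTGG (the unfolded protein response element bound by XBP1), each on both strands, and TATAAA on the strand shown.
Ccl6: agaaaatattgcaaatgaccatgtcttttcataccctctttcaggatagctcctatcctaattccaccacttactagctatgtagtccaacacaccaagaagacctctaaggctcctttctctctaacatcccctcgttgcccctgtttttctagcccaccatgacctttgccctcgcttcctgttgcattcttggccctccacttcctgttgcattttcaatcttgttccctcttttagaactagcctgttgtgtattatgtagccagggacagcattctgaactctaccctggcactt
Ccl3: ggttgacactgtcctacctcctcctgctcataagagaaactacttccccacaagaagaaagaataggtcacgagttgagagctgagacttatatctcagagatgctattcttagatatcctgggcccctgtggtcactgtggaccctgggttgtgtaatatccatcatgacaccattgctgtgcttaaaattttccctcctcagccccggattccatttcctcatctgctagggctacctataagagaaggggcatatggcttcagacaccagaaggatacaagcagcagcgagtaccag
Cx3cl1: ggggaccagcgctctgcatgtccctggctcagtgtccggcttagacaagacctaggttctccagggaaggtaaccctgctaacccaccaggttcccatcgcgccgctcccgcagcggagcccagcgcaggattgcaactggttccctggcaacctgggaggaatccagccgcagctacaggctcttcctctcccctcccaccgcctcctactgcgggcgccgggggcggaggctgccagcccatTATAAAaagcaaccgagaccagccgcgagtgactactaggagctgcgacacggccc
Cxcl14: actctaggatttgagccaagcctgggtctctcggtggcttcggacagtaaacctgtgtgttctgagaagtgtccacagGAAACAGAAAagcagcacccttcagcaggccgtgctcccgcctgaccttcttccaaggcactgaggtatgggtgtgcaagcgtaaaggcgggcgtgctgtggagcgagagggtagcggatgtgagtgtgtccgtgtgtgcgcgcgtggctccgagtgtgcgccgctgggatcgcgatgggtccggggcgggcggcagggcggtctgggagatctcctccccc
Cxcl1: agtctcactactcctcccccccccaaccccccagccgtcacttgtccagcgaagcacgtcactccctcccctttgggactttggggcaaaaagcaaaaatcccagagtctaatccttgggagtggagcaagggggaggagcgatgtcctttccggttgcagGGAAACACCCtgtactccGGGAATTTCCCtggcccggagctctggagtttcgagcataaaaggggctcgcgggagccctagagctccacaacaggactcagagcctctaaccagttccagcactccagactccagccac
Cxcl10: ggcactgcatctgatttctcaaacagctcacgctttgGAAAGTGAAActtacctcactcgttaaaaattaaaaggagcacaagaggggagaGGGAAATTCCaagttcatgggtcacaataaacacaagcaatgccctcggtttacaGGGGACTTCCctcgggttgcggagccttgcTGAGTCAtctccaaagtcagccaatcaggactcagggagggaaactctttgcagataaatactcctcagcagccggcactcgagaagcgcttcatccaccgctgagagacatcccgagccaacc

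The Ccl6 and Ccl3 windows held none of the 5 motifs, that of Cx3cl1 held TATAAA, and that of Cxcl14 held 1 ISRE match that begins 172 bases before the start. The Cxcl1 window held 3 kappa-B matches, of which the last 2 overlap, and the Cxcl10 window held 2 kappa-B matches, 1 ISRE match and 1 AP-1 match. The kappa-B letters occurred in 5.56% of all 32851 promoter windows and in 9 of the 52 member windows (17.3%), those of Ccl1, Ccl9, Ccl20, Cxcl1, Cxcl2, Cxcl3, Cxcl10, Ccr3 and Ccr6. Of these 9 genes, 3 were tested (Ccl9, Cxcl1 and Cxcl10) and none was called, against 20.0% of all genes tested called in either direction. With 3 genes tested, this count is too small to set against that share. The ISRE letters were in 3.44% of all windows and in those of Ccl19, Cxcl10 and Cxcl14. The AP-1 letters were in 7.81% of all windows and 17.3% of member windows, and TATAAA in 8.32% and 23.1%. The XBP1 element was in 0.676% of all windows and in 0 of 52 member windows. These counts say only whether the letters are in the windows.

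Among the receptors called, Cx3cr1 had the largest log2 fold change. Cx3cr1 (chromosome 9, 119901616 to 120069879), the fractalkine receptor of monocytes, dendritic cells and some lymphocytes, had 4.45, 3.12 and 1.76 CPM in DKO, against 0.508, 0.658 and 0.619 CPM in SKO. The lowest DKO library was above every SKO library, and the DKO libraries differed from each other more than the SKO libraries did. The log2 fold change was 2.38 ± 0.38 (edgeR adjusted p = 0.00263), with a call in all 12 alternatives and log2 values from 2.02 to 2.65. Ccr2 (chromosome 9, 124101950 to 124113557), the receptor of inflammatory monocytes, had 7.01, 3.76 and 3.53 CPM in DKO, against 1.72, 2.69 and 2.59 CPM in SKO. DKO replicate 1 stood apart at nearly the sum of the other DKO libraries. The log2 fold change of Ccr2 was 1.03 ± 0.31 (edgeR adjusted p = 0.0416), and 0.63 without DKO replicate 1 (edgeR adjusted p = 0.098). Its call ended there, with limma-voom and without any SKO library (edgeR adjusted p up to 0.113).

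Cxcr4 (chromosome 1, 128588199 to 128592293), the signalling receptor of CXCL12 on most leukocytes, had 2.81, 1.66 and 2.59 CPM in DKO, against 0.953, 0.603 and 1.24 CPM in SKO. The groups did not overlap, and the log2 fold change was 1.34 ± 0.32 (edgeR adjusted p = 0.018). The call for Cxcr4 ended without DKO replicate 3 or SKO replicate 2 (edgeR adjusted p = 0.0569 and 0.0713). Cxcr3 (chromosome X, 101731535 to 101734269), a receptor of effector T cells and NK cells, had 1.09, 0.732 and 1.30 CPM in DKO, against 0.508, 0.219 and 0.507 CPM in SKO. Its log2 fold change was 1.34 ± 0.40 (edgeR adjusted p = 0.041), on 66 counts in DKO and 21 in SKO. The call for Cxcr3 ended with DESeq2, with limma-voom and in every fit without 1 library other than the one lacking DKO replicate 2 (largest edgeR adjusted p 0.152).

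The 4 other signalling receptors tested were not called. Ccr7, which guides dendritic cells and lymphocytes to lymph nodes, had 1.34, 1.17 and 0.985 CPM in DKO and 0.889, 0.493 and 0.901 CPM in SKO (log2 0.63 ± 0.32, edgeR adjusted p = 0.195). Xcr1, the marker receptor of cross-presenting dendritic cells, had 1.05, 1.07 and 1.35 CPM in DKO and 0.889, 0.658 and 0.788 CPM in SKO (log2 0.57 ± 0.29, edgeR adjusted p = 0.19). Cxcr6, the CXCL16 receptor of liver T and NKT cells, had 1.05, 1.12 and 1.09 CPM in DKO and 0.826, 0.822 and 0.732 CPM in SKO (log2 0.45 ± 0.27, edgeR adjusted p = 0.27). For these 3 genes the DKO libraries lay above the SKO libraries, on 110 to 114 counts each. Ccr9, whose exons overlap those of 3 other genes, ranged over 0.467 to 0.839 CPM in DKO and 0.384 to 0.699 CPM in SKO (log2 0.56 ± 0.40, edgeR adjusted p = 0.357). Of the 8 receptors with counts too low to test, Ccr3, the eosinophil receptor, had 44 counts in DKO and 12 in SKO, a ratio of 2.98 (95% counting interval 1.55 to 6.20), and was called only without a filter (edgeR adjusted p = 0.0271). Ccr1 had 39 counts in DKO and 17 in SKO and the neutrophil receptor Cxcr2 28 and 11, and neither was called without a filter (edgeR adjusted p = 0.336 and 0.328). The others were Cxcr5, Ccr6, Ccr10, Cxcr1 and Ccr4, with 3 to 33 counts over the 6 libraries, and Ccr8 had none.

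**Figure D3:**
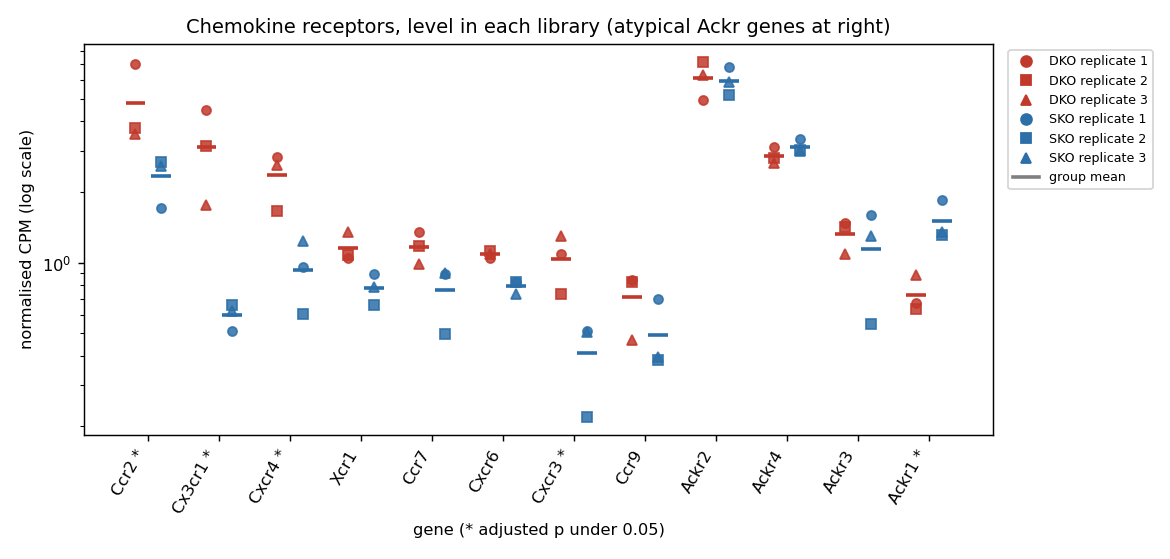
Normalised CPM (log axis) of 12 of the 13 receptors tested, with 1 point per library, DKO left of SKO for each gene, short lines for group means, an asterisk for an adjusted p under 0.05, and the 4 atypical receptors at the right. Cx3cr1 shows the widest gap between groups, and Ackr1 is the gene with an asterisk whose DKO points lie below the SKO points.

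Of the 4 atypical receptors, 1 was called, and 2 of the 3 others had a positive log2 difference. Ackr1 (chromosome 1, 173331886 to 173333750), which binds chemokines of several families on red cells and venular endothelium, had 0.672, 0.635 and 0.881 CPM in DKO, against 1.84, 1.32 and 1.35 CPM in SKO. Every DKO library was below every SKO library, on 46 counts in DKO and 77 in SKO, and the log2 fold change was -1.04 ± 0.29 (edgeR adjusted p = 0.0316). The call for Ackr1 ended without any library (edgeR adjusted p up to 0.0976), with DESeq2 (adjusted p = 0.0684) and with total counts (edgeR adjusted p = 0.0573), and its exons overlap those of Cadm3 on the same strand. Ackr2, a scavenger of inflammatory CC chemokines, had 4.91, 7.18 and 6.32 CPM in DKO and 6.80, 5.15 and 5.85 CPM in SKO (log2 0.05 ± 0.18, edgeR adjusted p = 0.88). Ackr3, a scavenger of CXCL12, had 1.47, 1.42 and 1.09 CPM in DKO and 1.59, 0.548 and 1.29 CPM in SKO (log2 0.23 ± 0.36, edgeR adjusted p = 0.694). Ackr4, a scavenger of CCL19, CCL21 and CCL25, had 3.11, 2.78 and 2.64 CPM in DKO and 3.37, 3.02 and 2.98 CPM in SKO (log2 -0.13 ± 0.18, edgeR adjusted p = 0.668). The libraries of both groups overlapped for these 3 genes, and exons of Ackr4 overlap the far more counted Acad11 on the other strand.

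Set side by side by known pairing, the ligand and the receptor were both called for CX3CL1 with CX3CR1 and for CCL2 with CCR2. For CXCL12 with CXCR4 and for CXCL9 and CXCL10 with CXCR3 the receptor was called and the ligand was not, and for CXCL16 with CXCR6 the ligand was called and the receptor was not. Many members lie in gene clusters. The cluster of 11 CC ligands on chromosome 11 (82035571 to 83664683) held 5 tested genes, 3 of them higher (Ccl2, Ccl6 and Ccl3). The cluster of 7 CXC ligands on chromosome 5 (90759360 to 92348889) held 3 tested genes and no call. That of 10 receptors on chromosome 9 (119901616 to 124147699) held 7 tested genes, 3 of them higher. Ligand clusters on chromosomes 4 and 8 held 1 tested gene each, higher on chromosome 8 (Cx3cl1) and not called on chromosome 4 (Ccl27a). Over all genes tested, 10.3% were higher and 20.0% were called in either direction. These cluster counts are small, and the clusters were not tested against each other.

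Genes that act downstream of chemokine receptors or beside them rose in part. Over all genes tested, 10.3% were higher and 9.70% lower. Of 22 tested genes of chemotaxis effectors, 10 were higher and 1 lower (median log2 0.44), among them the kinase Src (8.11 ± 1.81 CPM in DKO and 3.03 ± 0.698 CPM in SKO, SD, n = 3 each, log2 1.43 ± 0.22, edgeR adjusted p = 0.00207). Of 18 genes of the G protein and PI3K arm, 6 were higher and 1 lower (median 0.28). Pik3r5, a regulatory subunit of the PI3K that G protein-coupled receptors activate in leukocytes, stood at 4.03 ± 0.734 CPM in DKO and 1.18 ± 0.294 CPM in SKO (log2 1.77 ± 0.25, edgeR adjusted p = 0.00154). Pik3cd, a catalytic subunit of a different PI3K, was also higher (log2 0.60 ± 0.16). Its call ended without DKO replicate 1, DKO replicate 3, SKO replicate 2 or SKO replicate 3 (edgeR adjusted p up to 0.105). Of 12 genes of receptor desensitisation, 3 were higher and 0 lower (median 0.51), with 1 lower at an unadjusted p under 0.05 in edgeR and 0 by DESeq2 or limma-voom. They included the receptor kinase Grk3 (log2 0.62 ± 0.14), not called without DKO replicate 3 or SKO replicate 2, and the arrestin Arrb2 (log2 0.40 ± 0.11), not called without any library except DKO replicate 2. Leaving out 1 library moved these counts. Without DKO replicate 1, DKO replicate 3, SKO replicate 2 and SKO replicate 3 in turn, higher effectors numbered 4, 5, 3 and 3, higher G protein and PI3K genes 1, 2, 1 and 2, and higher desensitisation genes 1, 0, 0 and 1. Without SKO replicate 1 the G protein and PI3K list had 4, and without DKO replicate 2 the desensitisation list had 6.

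Of 12 tested leukocyte adhesion genes, 5 were higher (median 0.50), against 10.3% of all genes tested. Icam1, the endothelial and hepatocyte ligand of beta-2 integrins, stood at 21.5 ± 4.16 CPM in DKO and 11.7 ± 1.24 CPM in SKO (log2 0.88 ± 0.14, edgeR adjusted p = 0.00341), and Itgb2, the beta-2 integrin chain itself, at 21.2 ± 5.13 CPM in DKO and 10.5 ± 1.31 CPM in SKO (log2 1.02 ± 0.18). Of 13 genes for chemokine-like ligands, chemokine-cleaving enzymes and displaying proteoglycans, 5 were higher and 1 lower (median 0.35). Mmp12, the macrophage elastase, had 25.1 ± 8.53 CPM in DKO and 2.51 ± 0.788 CPM in SKO (log2 3.32 ± 0.33, edgeR adjusted p = 0.00125), and Sdc1, the main heparan sulfate proteoglycan of hepatocytes, 268 ± 25.6 CPM in DKO and 175 ± 1.80 CPM in SKO (log2 0.61 ± 0.09). Of 16 NF-kappa-B inducers and feedback genes, 4 were higher (median 0.23), among them Nfkb2 of the non-canonical arm (log2 0.92 ± 0.14, edgeR adjusted p = 0.00207) and the inhibitor Tnfaip3 (log2 0.72 ± 0.14). Among 17 interferon response genes none was called by edgeR or limma-voom (median 0.05), 3 were higher at an unadjusted p under 0.05, and DESeq2 called 1 higher. Without DKO replicate 2, edgeR called 3 of them higher. The most abundant of them were Stat2, at 66.5 to 77.3 CPM in DKO and 62.1 to 83.3 CPM in SKO, and Irf7, at 47.2 to 62.9 CPM in DKO and 34.6 to 55.0 CPM in SKO. Higher adhesion genes numbered 3 without DKO replicate 1, DKO replicate 3, SKO replicate 2 or SKO replicate 3, and higher genes of the chemokine-like list 3 without DKO replicate 3, SKO replicate 1 or SKO replicate 3.

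Some markers of several cell types that carry or make chemokines were higher in DKO, as were 10.3% of all genes tested. Of 8 monocyte and macrophage markers 5 were higher (median log2 0.83), with summed levels of 435 to 682 CPM in DKO and 352 to 449 CPM in SKO. Cd68 stood at 30.9 ± 7.60 CPM in DKO and 14.9 ± 0.961 CPM in SKO (log2 1.05 ± 0.17, edgeR adjusted p = 0.0049), and Cd14 at 9.73 ± 2.94 CPM in DKO and 3.09 ± 1.20 CPM in SKO (log2 1.67 ± 0.32). Of 7 dendritic cell markers 3 were higher (median 0.93), with sums of 18.6 to 28.5 CPM in DKO and 14.3 to 18.0 CPM in SKO. They were led by Itgax, which activated macrophages also express (6.50 ± 2.14 CPM in DKO and 1.63 ± 0.633 CPM in SKO), and Siglech (log2 0.93 ± 0.28), which was called in 4 of 12 alternatives. DESeq2 and limma-voom each called 1 dendritic cell marker. Of 6 Kupffer cell markers 1, Marco, was higher (log2 1.16 ± 0.19), an edgeR count near the share of all genes, while DESeq2 called 5. The Kupffer sums were 422 to 638 CPM in DKO and 333 to 416 CPM in SKO. Of 8 stellate cell and fibroblast markers 5 were higher (median 0.81), among them Dcn (log2 0.69 ± 0.10) and Col3a1 (log2 1.47 ± 0.30), with sums of 574 to 838 CPM in DKO and 340.1 to 403 CPM in SKO. Of 6 tested cholangiocyte markers 3 were higher (median 1.18), among them Spp1 (log2 1.27 ± 0.20) and Epcam (log2 1.24 ± 0.28), with sums of 122 to 200.4 CPM in DKO and 61.2 to 73.9 CPM in SKO. Most of these sums was Spp1, which macrophages also express, and without it they were 25.4, 15.3 and 11.8 CPM in DKO and 10.3, 11.2 and 8.89 CPM in SKO. Col3a1 lost its call without any SKO library or without a filter, and Epcam without SKO replicate 2 or SKO replicate 3. Without SKO replicate 1, 2 or 3, higher stellate markers numbered 2, 1 and 2. Without DKO replicate 3, SKO replicate 2 or SKO replicate 3, 3 monocyte and macrophage markers were higher. Cholangiocyte markers higher without SKO replicate 2 or SKO replicate 3 numbered 1, and 2 without DKO replicate 1. Of the dendritic cell markers 1 was higher in each fit without 1 library other than that lacking DKO replicate 2, and higher Kupffer markers numbered 4 without DKO replicate 2 and 3 without SKO replicate 1.

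No edgeR call was made among 7 T and NK cell markers, 3 neutrophil markers, 6 B cell markers and 8 sinusoidal endothelial markers, nor by DESeq2 or limma-voom. Without SKO replicate 3, 2 T and NK cell markers were called higher, and without DKO replicate 2, 1 neutrophil marker. At an unadjusted p under 0.05, 1, 1 and 0 of the first 3 lists were higher and 2 endothelial markers were lower. Median log2 fold changes were 0.67 for T and NK cell, 0.32 for neutrophil, 0.15 for B cell and -0.07 for endothelial markers. T and NK cell markers summed to 6.64 to 9.02 CPM in DKO and 4.22 to 5.78 CPM in SKO, without overlap. Cd4 was at 1.66 to 2.01 CPM in DKO and 0.713 to 1.41 CPM in SKO (log2 0.87 ± 0.30, edgeR adjusted p = 0.0675), and Nkg7 at log2 0.27 ± 0.33. Neutrophil markers summed to 4.98 to 12.1 CPM in DKO and 4.50 to 5.43 CPM in SKO. Their defining gene Ly6g had no counts in DKO and averaged 0.0212 CPM in SKO, and Csf3r (log2 0.71 ± 0.28, edgeR adjusted p = 0.103) and S100a9 (log2 0.32 ± 0.46) were the most abundant. B cell markers summed to 5.03 to 9.40 CPM in DKO and 5.54 to 7.31 CPM in SKO, with Cd79b at log2 0.36 ± 0.30. Endothelial markers summed to 496 to 534 CPM in DKO and 538 to 553 CPM in SKO, with Stab2 at log2 -0.05 ± 0.07 and Fcgr2b at log2 -0.21 ± 0.08. Of 8 hepatocyte markers 4 were lower (median -0.39), against 9.70% of all genes tested. Among them were Alb (log2 -0.89 ± 0.19) and Serpina1a (log2 -0.60 ± 0.12), and the list summed to 50966 to 63379 CPM in DKO and 78621 to 106060 CPM in SKO. The other 4 were not called: Tat (log2 0.59 ± 0.38), Hnf4a (log2 0.11 ± 0.13), Apoc3 (log2 -0.03 ± 0.12) and Cps1 (log2 -0.24 ± 0.16). Over the 12 alternatives, up to 1 hepatocyte marker was called higher. Without SKO replicate 2 only 1 hepatocyte marker was lower, and Alb was not called (edgeR adjusted p = 0.0503). No marker in any list was at 0 in all libraries. The part of these cell types in the chemokine and receptor values was not tested.

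**Figure D4:**
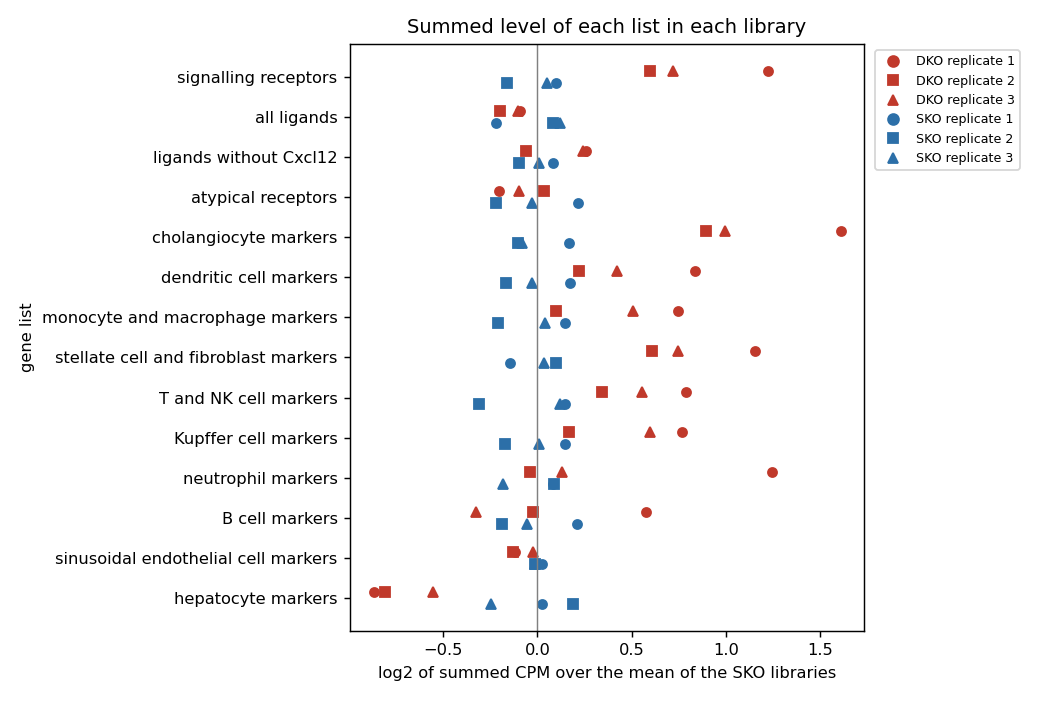
Log2 of the summed CPM of each marker list, and of the ligands and receptors, in each library over the mean of the SKO libraries, with DKO points above SKO points in each row. DKO replicate 1 lies farthest right for the signalling receptors and for the cholangiocyte, stellate, monocyte, dendritic, T and NK, Kupffer, neutrophil and B cell lists, and the hepatocyte list lies left of 0 in all DKO libraries.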

How the data were processed

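Liver RNA was extracted with Trizol and made into libraries by standard Illumina methods, per the labels. Each of the 6 libraries has a deposited table of whole-number counts per Ensembl gene, unnormalised by the authors. Build mm10 and the tools STAR, cutadapt 1.13, DESeq2 and HTSeq 0.6.1p1 are listed in the submitters' processing notes. Their settings, the annotation release and the use of strand: not given in the sources used here.

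Symbols, coordinates and exon lengths came from GENCODE M21, of the same assembly. Libraries were grouped by genotype; replicate numbers follow accession order. Counts were filtered with filterByExpr and fitted in edgeR 4.0.16 (R 4.3.3; TMM, robust glmQLFit and glmQLFTest, 4 residual degrees of freedom), with Benjamini-Hochberg adjustment over all 13986 genes. SE is the log2 fold change over the square root of F. CPM divides counts by total times TMM factor. TPM was computed from merged exons and is not TMM-scaled, so TPM levels were not compared between groups. Shares of a summed TPM are given for each group and were not tested. Intervals are exact binomial and cover counting error only. DESeq2 1.42.0, limma 3.58.1 (voom), upper-quartile or total-count scaling, 2 other filters and leaving out each library were alternatives. The scripts were tested on simulated data.

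Members and 17 gene lists (196 entries) were chosen with earlier results of these data known. Counts cover all members, but the individual values of 1 called receptor and of 2 list genes are not reported here. Values are given for the other called members, for the 6 uncalled ligands and 6 uncalled receptors of highest level, and for the 2 called genes of smallest p (or, with none called, the 2 most abundant) of each list. Other genes are named beyond this rule where a count, a sum or a pairing turned on them, or to show list genes that were not called. Protein sequences were not used here.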

Additional observations from a re-analysis of the deposited data

How the results depend on the processing

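Ccl6, Cx3cl1, Cxcl14 and Cx3cr1 were called in all 12 alternatives, and Ccl3 in the 11 in which it was tested. No called member changed sign. Without each library in turn, higher ligands numbered 4 to 6, lower ligands 0 to 1, higher receptors 1 to 5 and lower receptors 0 to 0, medians ran from 0.0034 to 0.40 for ligands and 0.47 to 0.75 for receptors (atypical ones included, 0.57 with all libraries), and all genes called from 1419 to 2739. Total counts moved the median of all genes from 0.006 to 0.23, calls to 4397 (3859 higher and 538 lower, against 1446 and 1357), the ligand median to 0.46, the median of these receptors to 0.79 and lower receptors to 0. DESeq2 also gave 0 lower receptors, and limma-voom 2 higher receptors. The ligand median was 0.38 with no filter and 0.10 with a mean of at least 1 CPM. Upper-quartile factors gave 1856 higher and 987 lower genes. Values of genes not called changed sign as follows, and the cause was not tested. With total counts Ackr4 was 0.093, Ccl9 0.0035, Cxcl12 0.011, Cxcl1 0.050, Ccl27a 0.048, Stab2 0.17, Fcgr2b 0.011, Nr1h4 0.20 and the endothelial median 0.15. With upper-quartile factors Stab2 was 0.016 and Nr1h4 0.044. Over the fits without 1 library, values ran from -0.083 to 0.19 for Ackr2, -0.12 to 0.53 for Ackr3, -0.059 to 0.29 for Cxcl10, -0.17 to 0.29 for Cxcl9, -0.079 to 0.12 for Ccl25, -0.065 to 0.16 for Stat2, -0.34 to 0.68 for S100a9 and -0.066 to 0.026 for Nr1h4, and list medians from -0.16 to 0.39 for B cells, -0.34 to 0.61 for neutrophils and -0.0092 to 0.22 for interferon response. No paired analysis was possible because the labels give no replicate numbers shared between the groups. Genes near 3 counts per library, among them Ccl3 and Ccl4 in SKO, are limited by depth.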
